A study of Mus musculus with 6 samples.

Results

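Interferon-stimulated genes are the genes that cells switch on after an interferon binds its receptor. The group described here holds 43 of them, out of 33308 genes in the deposited table of mouse skin RNA-seq. They were listed by name, with earlier results of these data known. All 43 were found in the table, and 31 of them passed the filter on low values (a mean of at least 1 FPKM over the 6 libraries, a measure of fragments scaled for gene length and library size) and were tested in the main comparison. The other 12 (Herc6, Ifit2, Oas3, Oasl1, Mx1, Mx2, Rsad2, Cmpk2, Ifi44, Gbp5, Iigp1 and Tgtp1) are given from the same test run with no filter. The study had 2 groups of mouse skin: untreated controls (3 libraries) and mice given osimertinib for 42 days (3 libraries), and it asked how this inhibitor of the epidermal growth factor receptor, a lung cancer drug, affects skin. Strain, age, sex, dose and route were not stated in the labels, and neither was a day for the controls. Nothing there says whether each library stands for its own mouse, and p-values thus cover only library-to-library spread, part of which may be technical. Library totals ran from 54112624 to 60719064 counts.

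Type I interferons, such as interferon alpha and beta, signal through Jak1 and Tyk2 to a complex that holds Stat2 and Irf9, which binds the interferon-stimulated response element (ISRE). Interferon gamma signals through Jak1 and Jak2, and its response runs through the gamma-activated site (GAS). The Ifit, Oas and Mx families restrict viruses and are classical type I targets, while the guanylate-binding proteins (Gbp) and the immunity-related GTPases (Irgm1, Irgm2 and Igtp among them) act on vacuoles that hold intracellular pathogens and respond strongly to interferon gamma. In skin, keratinocytes, fibroblasts and immune cells can all respond to both kinds of interferon.

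The sequences in front of these genes are shown for the interferon motifs they carry, and because some members are close copies of each other. Promoters (250 bases before to 50 after a RefSeq start, GRCm38.p6) were listed for 32 of the 43 members, and not for Dhx58, Zbp1, Usp18, Oas2, Mx1, Mx2, Rtp4, Ifi27l2a, Parp9, Parp14 and Iigp1. An ISRE match, GAAANNGAAA on either strand, was in 19 of the 32 (59.4%), against 3.99% of all 27025 genes with a listed promoter. A GAS match, TTCNNNGAA, which reads the same on both strands, was in 11 of the 32 (34.4%), against 9.55% of all genes. Among the Ifit, Oas and Mx members with a promoter, 5 of 8 held an ISRE match and 2 of 8 a GAS match, and among the Gbp, Irgm and Igtp members 7 of 7 and 4 of 7 did. ISRE and GAS matches overlapped in 1 promoter, that of Bst2. A match is a description of letters and not evidence of binding. The stretches below lie before the RefSeq start site, read 5′ to 3′ on the gene's strand, and carry every ISRE and GAS match of that promoter before the start in capitals. The deposited gene table can place the start elsewhere. By its coordinates the Irgm1, Irgm2 and Tgtp1 stretches lie inside the gene, and that of Gbp2 does in part. Irgm2, for example, starts at 58199618 in that table. The first 4 are type I targets with ISRE matches alone, and the others are GTPases.
Ifit1 (chr19:34640775-34640823, plus strand): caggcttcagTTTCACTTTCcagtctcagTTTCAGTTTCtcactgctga
Ifit3 (chr19:34583363-34583426, plus strand): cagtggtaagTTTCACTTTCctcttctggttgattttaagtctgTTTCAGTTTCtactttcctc
Ifit3b (chr19:34607759-34607822, plus strand): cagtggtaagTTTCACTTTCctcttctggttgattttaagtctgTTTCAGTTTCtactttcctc
Isg15 (chr4:156200865-156200906, minus strand): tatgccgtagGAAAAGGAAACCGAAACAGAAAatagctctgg
Gbp2 (chr3:142620594-142620623, plus strand): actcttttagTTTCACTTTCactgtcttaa
Gbp7 (chr3:142530220-142530302, plus strand): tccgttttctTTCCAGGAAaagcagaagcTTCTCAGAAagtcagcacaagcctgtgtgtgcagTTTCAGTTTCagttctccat
Irgm1 (chr11:48871425-48871460, minus strand): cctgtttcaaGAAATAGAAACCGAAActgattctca
Irgm2 (chr11:58214892-58214932, plus strand): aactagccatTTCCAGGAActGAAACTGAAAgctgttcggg
Igtp (chr11:58199501-58199541, plus strand): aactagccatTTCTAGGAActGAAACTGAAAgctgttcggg
Tgtp1 (chr11:48992304-48992344, minus strand): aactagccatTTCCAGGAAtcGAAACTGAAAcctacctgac
The Ifit3 and Ifit3b stretches are the same letters at different distances from the start, and the Irgm2, Igtp and Tgtp1 stretches each hold a GAS match followed closely by an ISRE match. In the transcripts of GENCODE release M21, 18.5% of the 150-base windows of Ifit3 also occur in Ifit3b, 32.4% of those of Oas1a occur in Oas1g, and 62.5% of those of Tgtp1 occur in Tgtp2. Irgm2 and Igtp overlap on the same strand of chromosome 11, with 162 exon bases in common (4.39% and 8.01% of their exon bases). Rtp4 (13.9%, with Gm45338), Herc6 (13.7%, with Gm45193) and Gbp7 (11.3%, with Gm43802) share a larger part of their own exon bases with another gene on the same strand. Ifi35 (16.8% of exon bases, with Gm11626) and Parp9 (9.4%, with Dtx3l) overlap a gene on the opposite strand. The labels do not say how such reads were divided, so the values of these genes are uncertain, and smaller overlaps exist for some of the other members.

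Every one of the 43 genes had a lower fitted level in osimertinib-treated skin than in control skin, and none passed the main test on its own. With no filter the log2 fold change (osimertinib over control) was below 0 in 43 of 43 members, against 52.6% of the 31732 genes with any count, and its median was −0.78, against −0.04 over all of those genes. The members are measured in the same libraries and are not independent replicates. Counts of members here thus describe the group and are not separate observations. In the main comparison it was below 0 in 31 of 31 tested members, against 54.7% of 13498 genes, with a median of −0.90 against −0.05. The quasi-likelihood test of edgeR called 0 members at an adjusted p under 0.05, and called 0 (0%) of all tested genes. At an unadjusted p under 0.05 it had 11 of the 31 members lower and 0 higher, where 6.73% of all tested genes were lower and 7.22% higher. With no filter these counts were 12 and 0 of the 43, against 4.12% and 5.29% of all genes. DESeq2, an alternative test on the same counts, called 4 of the 31 as lower (Ifi27l2a, Ifih1, Usp18 and Igtp) and 0 as higher, where it called 2.95% of all tested genes as lower and 3.41% as higher. With no filter it called 3 of the 43 as lower, against 1.05% of all genes lower and 1.65% higher, and Igtp was no longer among them.

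**Figure D1:**
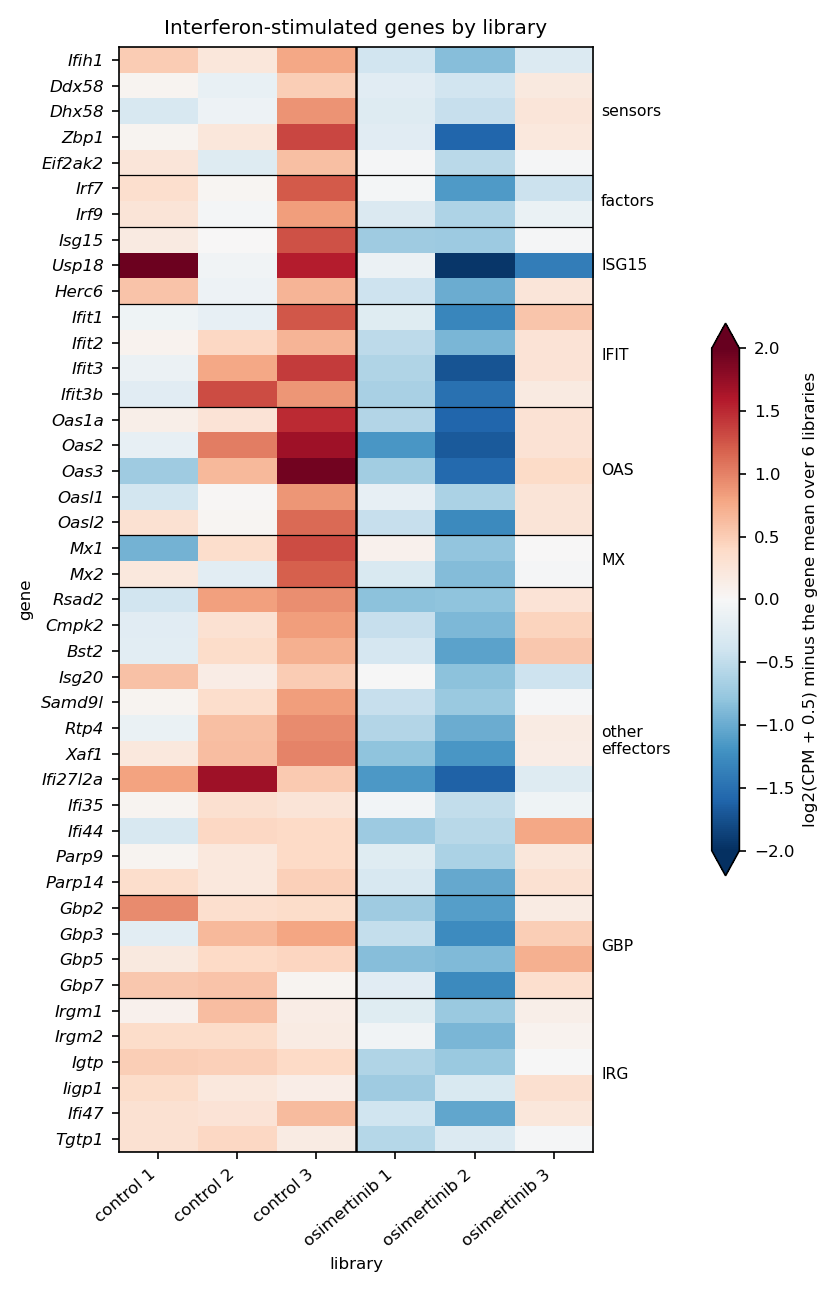
Levels of the 43 genes in each library. Rows are genes grouped by role, columns are libraries, and colour is log2(CPM + 0.5) centred on each gene's own 6-library mean, with red above and blue below the mean and colours ending at 2 in each direction. Control 3 is the highest library for 29 genes and osimertinib 2 the lowest for 38.

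The libraries were not evenly placed within their groups. Control 3 was the highest library for 29 of the 43 members, and controls 1 and 2 for 6 each. Osimertinib 2 was the lowest for 38 of the 43. Osimertinib 3 lay near the controls and was the highest library for Gbp5 and Ifi44. In 15 of the 43 members every treated library lay below every control, against 7.29% of all genes with a count. Summed over the 43 genes, their share of a library's count was 0.0599% for control 1, 0.0565% for control 2 and 0.0846% for control 3. For osimertinib 1, 2 and 3 it was 0.0318%, 0.0231% and 0.0469%, below each control. Ifi27l2a alone gave 7584, 11593 and 7212 of these counts in controls and 2041, 1630 and 4033 in treated libraries. The separation of the summed share thus leans on 1 gene. In the 11 Ifit, Oas and Mx members osimertinib 3 (0.005842%) lay above control 2 (0.005397%). For the 7 Gbp, Irgm and Igtp members these shares were 0.007375% and 0.007154%. The 12 other effectors, Ifi27l2a among them, stayed apart (0.02777% to 0.03415% against 0.01055% to 0.02187%). Without control 3 the log2 fold change stayed below 0 in 40 of 43 members with no filter, with a median of −0.62, and in 16 of 43 every treated library lay below both other controls, against 13.4% of all genes.

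Control 3 also differed in the tissue it held. Skeletal muscle transcripts (24 genes) made up 5.41% and 16.1% of controls 1 and 2 but 0.0632% of control 3, and 5.32% to 8.76% of the treated libraries. For 8 basal keratinocyte genes, Krt5 and Krt14 among them, the share was 0.835% to 3.64% of control and 1.03% to 1.77% of treated libraries, so keratinocyte RNA was present in each library and highest in control 3. Keratinocyte genes were lower along with the members: 8 of 8 basal genes (median log2 fold change −1.09) and 8 of 9 suprabasal genes (median −1.12) were below 0. EdgeR called 0 of these, 3 and 1 were lower at an unadjusted p under 0.05, and DESeq2 called 1 and 0. Of all tested genes, 54.7% were below 0, 6.73% were lower at that p and DESeq2 called 2.95% as lower. For 25 hair shaft genes the share of the count was 0.00509% to 0.0374% of control and 0.107% to 1.07% of treated libraries. It was highest in osimertinib 2, the library in which most of the members were lowest. Adding each library's muscle score to the model gave a median of −0.73 over the 31 tested members, and taking the muscle and hair genes out before scaling gave −0.90. The muscle score (mean log2 CPM) was 3.48 in control 3 and 9.86 to 11.95 in the other libraries. In that model, muscle and other traits of control 3 thus cannot be told apart. The part of keratinocyte and hair content in the members' levels was not tested. In bulk tissue, fewer cells of a type and less RNA per cell cannot be told apart. Levels below are CPM (counts scaled to library size, after trimmed-mean (TMM) scaling) unless FPKM is named.

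Among the sensors of foreign nucleic acid, Ifih1 stood apart from the rest. Ifih1 (chromosome 2, 62595798 to 62646211), which senses long double-stranded RNA, was at 14.8, 12.02 and 17.9 CPM in controls 1, 2 and 3 and at 7.74, 5.42 and 8.38 CPM in the treated libraries. The groups did not overlap, and the log2 fold change was −1.05 ± 0.27 (SE, n = 3 per group), with an edgeR adjusted p of 0.238 and a DESeq2 adjusted p of 0.00458. Ddx58, which encodes RIG-I, the sensor of RNA with a free 5′ triphosphate, was at 13.2, 11.4 and 18.0 CPM in controls and 10.8, 9.52 and 14.6 in treated skin, groups that overlap widely (−0.29 ± 0.27). Zbp1, a sensor of Z-form nucleic acid that can trigger necroptosis, was at 3.91, 4.46 and 10.1 CPM in controls and at 3.10, 0.903 and 4.38 in treated skin. Its spread rests on control 3 and osimertinib 2, and its log2 fold change of −1.14 had an SE of 0.66. Eif2ak2, the kinase PKR that halts translation, was at 11.6, 8.11 and 15.0 CPM against 9.54, 6.57 and 9.55 (−0.44 ± 0.30). Dhx58, a regulator of the RNA sensors, differed by −0.43 ± 0.44, and by 0.081 without control 3, so it has no settled direction here.

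The transcription factors that carry the response were lower in every treated library than in every control, which held for 9.38% of all tested genes. Irf9, the DNA-binding subunit of the complex with Stat2, was at 35.5, 28.8 and 53.2 CPM in controls and 24.4, 19.2 and 27.0 in treated skin (−0.74 ± 0.27, edgeR adjusted p = 0.327). Irf7, the factor that amplifies interferon alpha production, was at 30.0, 24.3 and 56.0 CPM against 23.1, 10.5 and 17.5 (−1.11 ± 0.42, edgeR adjusted p = 0.334). The gap between groups was narrow for both genes, since control 2 lay close to the highest treated library. Without control 3 the log2 fold changes were −0.45 for Irf9 and −0.67 for Irf7.

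In the ISG15 system, Usp18 had the largest fold change of the 31 tested members. Usp18 (chromosome 6, 121245906 to 121270917), the protease that removes Isg15 from proteins and also restrains the type I receptor, was at 42.1, 9.88 and 31.9 CPM in controls and 9.53, 2.34 and 3.68 in treated skin. Control 2 was barely above osimertinib 1, so the groups were separated by little. The log2 fold change was −2.43 ± 0.73, a 5.39-fold lower level, with an edgeR adjusted p of 0.272 and a DESeq2 adjusted p of 0.0109. Isg15, a ubiquitin-like protein attached to other proteins, was at 7.47, 6.58 and 16.4 CPM against 3.81, 3.74 and 6.42 (−1.13 ± 0.45). Herc6, the mouse ligase that attaches Isg15, was at 5.88, 3.49 and 6.34 CPM against 2.72, 1.65 and 4.55, and differed by −0.78 ± 0.44 in the fit with no filter.

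The Ifit genes, whose proteins bind viral RNA or block its translation, were lower in osimertinib 1 and 2 and intermediate in osimertinib 3. Ifit3 was at 7.08, 13.6 and 21.4 CPM in controls and 4.94, 2.01 and 9.44 in treated skin (−1.36 ± 0.65). Its near copy Ifit3b was at 2.32, 7.69 and 5.61 CPM against 1.62, 0.670 and 3.24 (−1.50 ± 0.69), and since reads of the pair may have been divided between them, these are not separate observations. Ifit1 was at 2.59, 2.43 and 7.30 CPM against 2.29, 0.826 and 4.35 (−0.72 ± 0.72), a difference carried by control 3, without which it was −0.020. Ifit2 differed by −0.78 ± 0.42 with no filter. In each of the 4 genes osimertinib 3 lay above at least 1 control, so the groups overlapped.

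The Oas genes make 2′-5′ oligoadenylates, which activate an RNA-degrading enzyme, apart from Oasl1 and Oasl2, which are related proteins. Oas2 had the largest difference of the family, at 3.74, 9.19 and 14.9 CPM in controls and 1.64, 0.981 and 5.33 in treated skin (−1.81 ± 0.78, edgeR adjusted p = 0.376). Oas1a was at 8.03, 9.06 and 21.8 CPM against 4.74, 2.12 and 9.19 (−1.28 ± 0.64), and Oasl2 at 13.1, 10.9 and 23.8 CPM against 7.53, 4.05 and 12.7 (−0.97 ± 0.50). In all 3 genes osimertinib 3 reached the range of the controls, and control 3 stood well above controls 1 and 2. Without control 3 the values were −1.31, −0.69 and −0.57. Oas3 and Oasl1, both under the filter, differed by −1.68 ± 0.94 and −0.50 ± 0.53, and without control 3 Oasl1 was at 0.057.

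The Mx genes, which encode antiviral GTPases of the dynamin type, were among the members with low counts. Mx1 was at 0.931, 3.01 and 6.29 CPM in controls and 2.41, 1.09 and 2.27 in treated skin, and its lowest library was control 1. Mx2 was at 2.14, 1.46 and 4.70 CPM against 1.34, 0.748 and 1.74. Both overlapped between groups, with log2 fold changes of −0.79 ± 0.67 and −1.07 ± 0.54 with no filter.

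The remaining effectors held the most abundant member and several with separated groups. Ifi27l2a (chromosome 12, 103442167 to 103443680), a small mitochondrial membrane protein gene strongly induced by interferon, was at 289 ± 76.5 FPKM in controls and 79.1 ± 38.9 in treated skin (SD, n = 3), by far the highest level per length of the 43 genes, whose median over all libraries was 1.56 FPKM. By library it was at 138, 256 and 114 CPM in the controls and 35.2, 25.4 and 65.7 CPM in treated skin. The groups did not overlap, control 3 was the lowest control here, and the log2 fold change was −2.01 ± 0.47, with an edgeR adjusted p of 0.222, the smallest among the members, and a DESeq2 adjusted p of 0.00248. Xaf1, a pro-apoptotic gene, was at 6.37, 8.64 and 11.4 CPM against 2.93, 2.17 and 6.09 (−1.24 ± 0.46). Samd9l, which restricts poxviruses and limits translation, was at 7.01, 8.66 and 12.4 CPM against 4.70, 3.79 and 6.55 (−0.90 ± 0.33). Isg20, an exonuclease that degrades RNA, was at 8.62, 6.25 and 8.15 CPM against 5.55, 2.96 and 4.07 (−0.87 ± 0.32). In these 3 genes, as in Ifi35 (−0.42 ± 0.18), each treated library lay below each control, which held for 7.29% of all genes with a count. The other 7 of the 12 overlapped between groups. Their log2 fold changes were −1.01 for Rtp4, a chaperone of receptors at the cell surface, −0.48 for Bst2 (tetherin, which holds budding viruses at the membrane), −0.61 for Parp14 and −0.41 for its partner Parp9, and, with no filter, −1.02 for Rsad2 (viperin), −0.61 for its neighbour Cmpk2 and −0.24 for Ifi44.

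**Figure D2:**
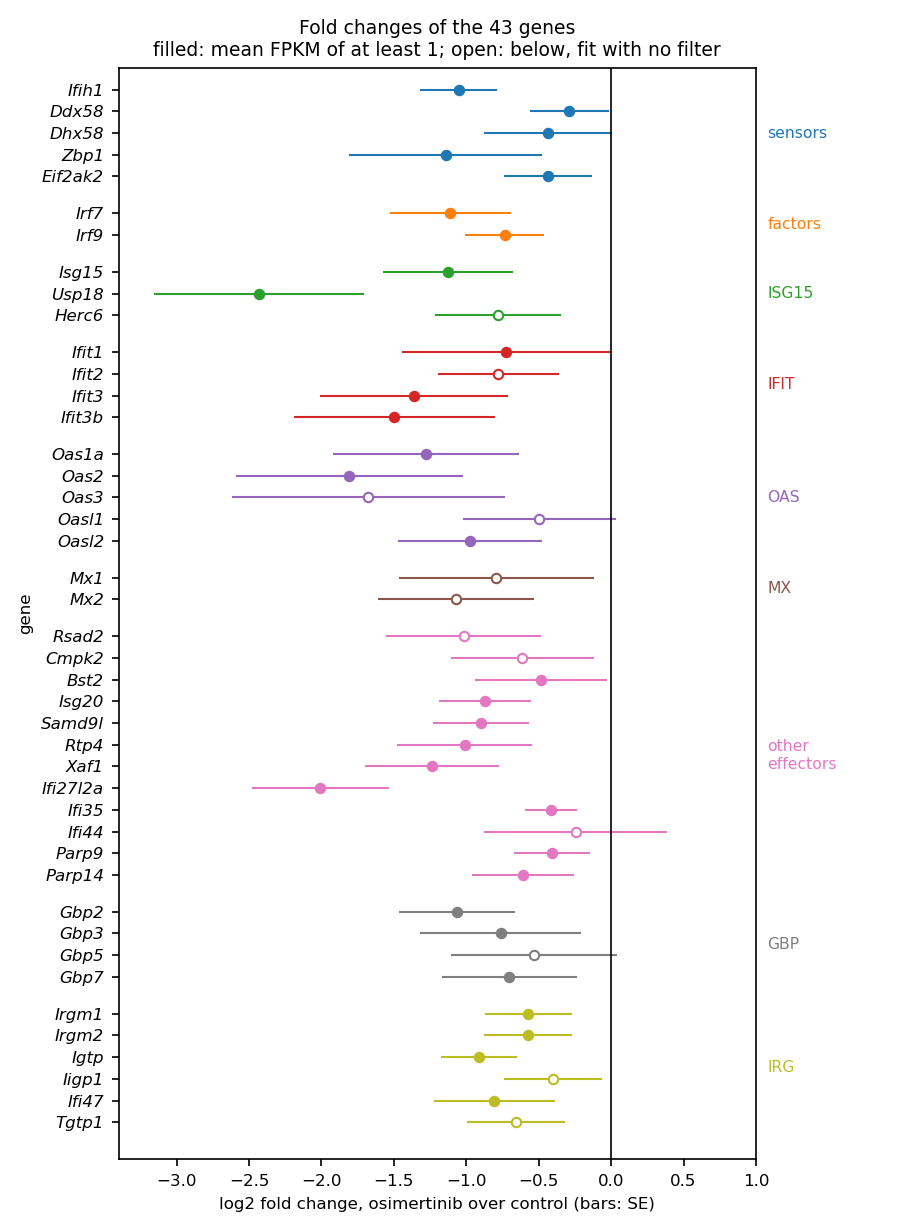
Log2 fold changes of the 43 genes, osimertinib over control, with the standard error as bars. Filled points are the 31 genes tested in the main comparison, open points the 12 with a mean FPKM under 1, from the fit with no filter. All points lie below 0, from −2.43 for Usp18 to −0.24 for Ifi44.

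Of the 4 guanylate-binding proteins, Gbp2 alone had groups that did not overlap, where 7.29% of all genes with a count were separated and lower. Gbp2 was at 23.6, 15.2 and 15.7 CPM in controls and 7.18, 5.33 and 13.6 in treated skin, with a log2 fold change of −1.06 ± 0.40 (edgeR adjusted p = 0.334). Gbp3 was at 5.15, 9.77 and 10.7 CPM against 4.19, 2.23 and 8.70 (−0.76 ± 0.56), and Gbp7 at 10.3, 10.6 and 7.27 CPM against 5.84, 2.59 and 8.87 (−0.70 ± 0.46). For Gbp3 and Gbp7 osimertinib 3 was inside the control range and the other treated libraries below it. Gbp5, which also promotes inflammasome assembly, was highest in osimertinib 3, at 4.53 CPM, against 1.19 and 1.15 in the other treated libraries and 3.01 to 3.62 in controls.

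Igtp had the tightest control values, relative to its level, of the immunity-related GTPases. Igtp (Irgm3, chromosome 11, 58199556 to 58207591) was at 14.5, 14.3 and 13.6 CPM in controls and 6.51, 5.90 and 10.1 in treated skin. The groups were clearly apart, with a log2 fold change of −0.91 ± 0.26, an edgeR adjusted p of 0.265 and a DESeq2 adjusted p of 0.0326, which became 0.0941 with no filter. Irgm2, whose exons overlap those of Igtp, was at 16.7, 16.7 and 14.4 CPM against 12.1, 6.53 and 13.4 (−0.58 ± 0.30). Irgm1, which with Irgm2 and Igtp keeps the other GTPases inactive on the cell's own membranes, was at 13.5, 19.6 and 14.1 CPM against 10.6, 7.34 and 13.8 (−0.57 ± 0.30). Ifi47 was at 5.33, 5.19 and 6.81 CPM against 3.08, 1.81 and 5.02 (−0.81 ± 0.42). With no filter, the effector GTPases Tgtp1 and Iigp1 differed by −0.66 ± 0.34 and −0.40 ± 0.34. Tgtp1 had separated groups, but its reads are hard to tell from those of Tgtp2.

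Type I targets (the 11 Ifit, Oas and Mx members) and gamma-type genes (the 7 Gbp, Irgm and Igtp members) were both lower in treated skin, and the gap between the families depended on control 3, which moved the type I median and hardly the gamma-type one. The median log2 fold change was −1.32 over the 6 tested type I genes and −0.73 over the 6 tested gamma-type genes, a difference of 0.59. Without control 3 the medians were −0.81 and −0.76 and the difference 0.052. With no filter, over all 11 and 7 genes, the medians were −1.07 and −0.68, and without control 3 they were −0.62 and −0.63. The mean log2 CPM of the type I genes was 1.59, 2.27 and 3.21 in controls 1, 2 and 3 and 1.26, 0.24 and 2.11 in the treated libraries, so control 3 was far above and osimertinib 3 lay between controls 1 and 2. That of the gamma-type genes was 3.37, 3.52 and 3.37 in controls and 2.50, 1.91 and 3.30 in treated skin, where the controls lay close together and all treated libraries were below them, osimertinib 3 only just. Control 3 was the highest library for 10 of 11 type I genes, the exception being Ifit3b, and for 1 of 7 gamma-type genes, Gbp3. Groups were separated in 0 of 11 type I genes and in 3 of 7 gamma-type genes (Gbp2, Igtp and Irgm2), where 7.29% of all genes were, so that 0 of 11 is near the background. Without control 3 the counts were 0 of 11 and 4 of 7, against 13.4%.

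**Figure D3:**
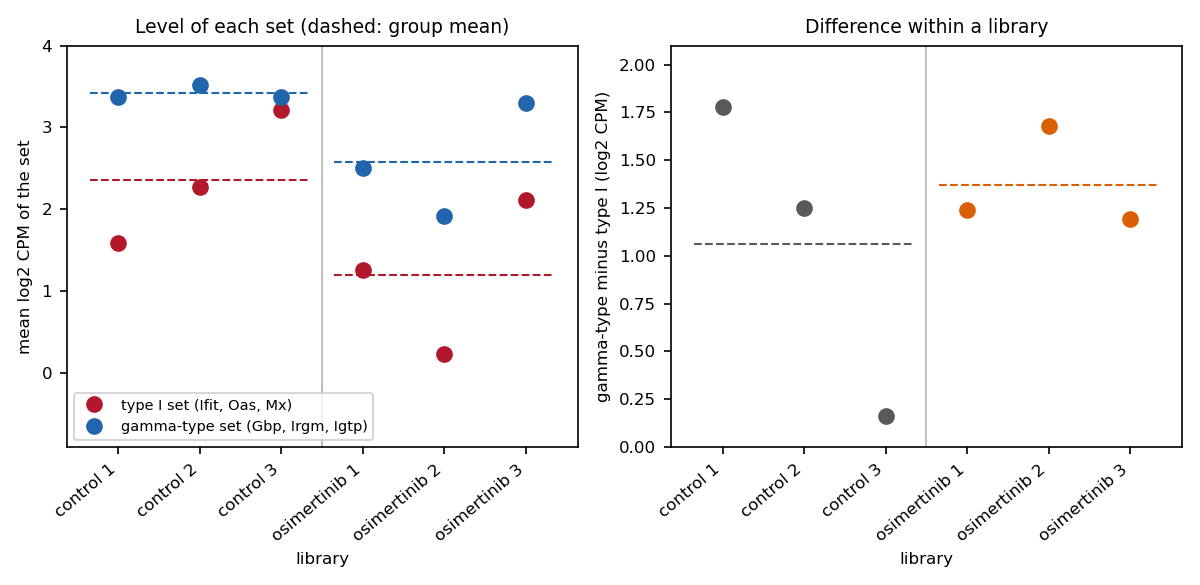
Mean log2 CPM of the 11 type I and the 7 gamma-type genes in each library (left, dashed lines are group means) and the gamma-type minus the type I mean within each library (right). Gamma-type levels are alike in the 3 controls, whereas type I levels range from 1.59 to 3.21, and the difference within control 3 is 0.16 against 1.19 to 1.78 in the other libraries.

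Within a library, the gamma-type mean exceeded the type I mean by 1.78, 1.25 and 0.16 in controls 1, 2 and 3 and by 1.24, 1.68 and 1.19 in treated libraries 1, 2 and 3. The balance between the families in treated skin therefore lay inside the range of the controls, which control 3 made wide. Against controls 1 and 2 alone, osimertinib 2 lay inside the range and osimertinib 1 and 3 just below it. Leaving out osimertinib 2 or osimertinib 3 moved the gamma-type median to −0.39 or −1.16, and adding Ifi47 to the tested genes gave −0.76. With Iigp1 and Tgtp1 added as well, over 10 genes with no filter, the median was −0.67. In the model with the muscle score, the type I and gamma-type medians were −0.96 and −0.76, a difference of 0.20, and over all 11 and 7 genes with no filter they were −0.69 and −0.67, a difference of 0.022. Control 3 had by far the lowest muscle score, so this model is not a check separate from leaving out control 3. With no filter, limma on log2(FPKM + 1) turned the sign of the difference, to −0.044.

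**Figure D4:**
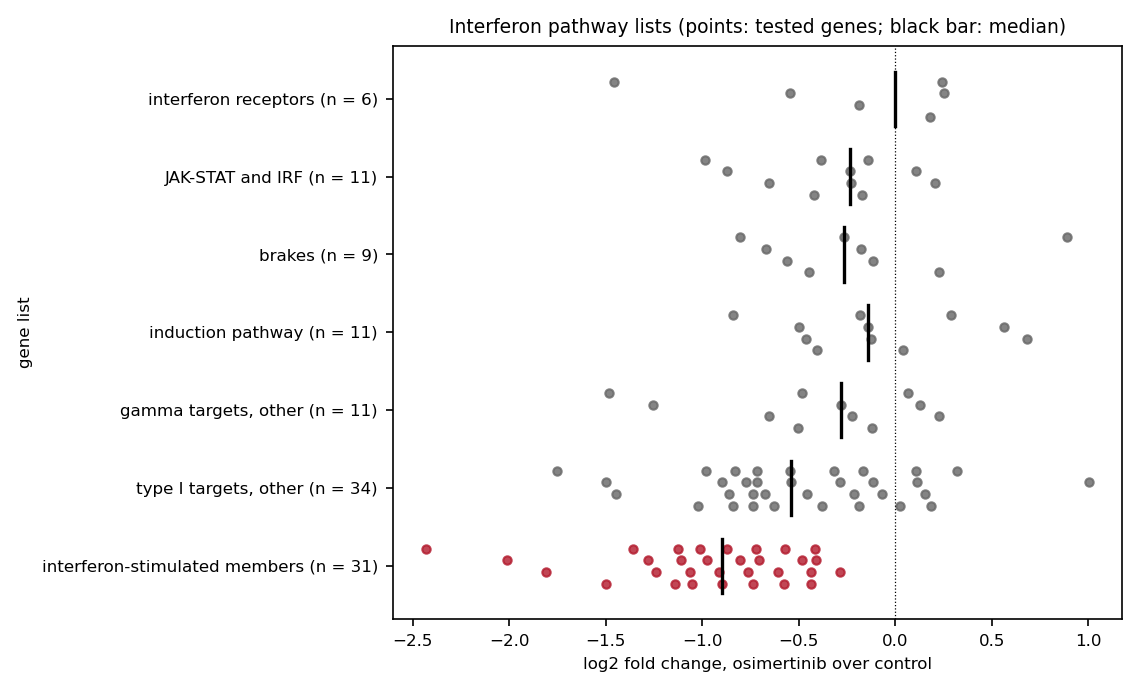
Log2 fold changes of tested genes in 6 lists of the interferon pathway and of the 31 tested members, osimertinib over control. Grey points are single genes, red points the members, and black bars the medians, which run from −0.0025 for receptors to −0.90 for the members.

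The interferons themselves were at or near the limit of detection. Of 21 ligand genes looked for, 8 were matched to the table, and none passed the filter. Ifng, the gene for interferon gamma, had 4, 0 and 7 counts in controls 1, 2 and 3 and 0 in each treated library, where a count of 0 allows up to 3 counts. Ifnk, an interferon of keratinocytes, had 4 counts, all in control 3, and Ifna7, Ifna13, Ifna14 and Ifnab had 2 to 4 counts in 1 library each. Ifnz was the only ligand counted in all 6 libraries, with 6, 2 and 6 counts in controls and 6, 4 and 8 in treated skin, and Ifne had 2 counts in control 3 and 3 in osimertinib 2. At this depth a difference in ligand transcripts was not detectable.

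The 6 receptor genes split evenly, 3 lower and 3 higher (median log2 fold change −0.0025). EdgeR called 0 of them, 1 was lower at an unadjusted p under 0.05, and DESeq2 called that 1, Ifngr1. The shares of all tested genes that were lower by these 2 rules were 6.73% and 2.95%. Ifngr1, the ligand-binding chain of the interferon gamma receptor, was at 208, 101 and 251 CPM in controls and 92.9, 48.2 and 62.4 in treated skin (−1.46 ± 0.41, edgeR adjusted p = 0.26, DESeq2 adjusted p = 0.013). The groups did not overlap, but control 2 lay close to osimertinib 1. Ifnar1, a chain of the type I receptor, was at 28.8, 24.9 and 29.0 CPM against 24.4, 23.2 and 25.2 (−0.19 ± 0.15), and Ifnlr1, the receptor of interferon lambda, at 21.8, 10.7 and 30.8 CPM against 17.6, 13.4 and 12.4 (−0.54 ± 0.40).

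Among signal carriers, Stat2 and Jak1 were lower in each treated library than in each control, which held for 9.38% of all tested genes. In the list of JAK, STAT and IRF genes outside the members, 9 of 11 tested genes were lower, with a median of −0.23. EdgeR called 0 of them, 3 were lower at an unadjusted p under 0.05, and DESeq2 called 2. Over all tested genes, 54.7% were below 0, 6.73% were lower at that p and DESeq2 called 2.95% as lower. Stat2 was at 27.2, 19.4 and 37.8 CPM in controls and 13.3, 12.9 and 16.4 in treated skin (−0.99 ± 0.28), and Jak1, the kinase that all these receptors use, at 152, 157 and 127 CPM against 103, 61.9 and 113 (−0.65 ± 0.26). The groups did not overlap for either gene, and control 2 came closest to treated skin for Stat2.

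The genes that restrain or start the response were mixed. Of 9 genes that restrain it, 7 were lower and 2 higher, and 0 were called by edgeR (also 0 at an unadjusted p under 0.05) or by DESeq2. Socs1, an inhibitor of JAK kinases, was at 3.72, 1.64 and 3.81 CPM in controls and 4.74, 3.58 and 8.67 in treated skin (0.89 ± 0.49), the opposite direction to the members. Samhd1, which depletes nucleotides and is itself induced by interferon, was at 69.5, 64.0 and 72.0 CPM against 44.7, 31.3 and 63.5 (−0.56 ± 0.27), and the phosphatase Ptpn6 differed by −0.80 ± 0.40. Of 11 genes that sense nucleic acid or pass the signal to interferon production, 7 were lower and 4 higher. EdgeR called 0, and 1 was higher at an unadjusted p under 0.05 and by DESeq2, against 7.22% and 3.41% of all tested genes. Traf3, an adaptor of that pathway, was at 22.6, 20.3 and 20.6 CPM in controls and 29.0, 38.2 and 34.6 in treated skin (0.68 ± 0.16, edgeR adjusted p = 0.231, DESeq2 adjusted p = 0.0128), with separated groups. The endosomal RNA sensor Tlr3 was at 9.49, 7.47 and 9.27 CPM against 5.10, 2.77 and 6.80 (−0.84 ± 0.37), and the ligase Trim25 differed by −0.50 ± 0.27.

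Further interferon targets that are not members gave smaller medians in the same direction. Of 34 tested type I targets 27 were lower and 7 higher, with a median of −0.54, and 11 had separated groups, all lower, where 9.38% of all tested genes were separated and lower. DESeq2 called 4 of them as lower, against 2.95% of all tested genes. Trim34a was at 11.1, 6.54 and 11.1 CPM in controls and 3.15, 2.24 and 5.17 in treated skin (−1.44 ± 0.41), and Parp10 at 33.9, 25.1 and 39.3 CPM against 20.2, 18.3 and 20.5 (−0.74 ± 0.21). The helicase Helz2 differed by −0.67 ± 0.21. Of 11 tested gamma targets 8 were lower and 3 higher, with a median of −0.28. In 1 of the 11 the groups were separated and lower, near the background of 9.38%, and DESeq2 called 0. The 3 with the smallest p were the chemokine Cxcl10 at 6.32, 4.20 and 4.38 CPM against 1.95, 0.779 and 2.61 (−1.48 ± 0.49), the MHC class I regulator Nlrc5 (−1.25 ± 0.47) and the immunoproteasome subunit Psmb9 (−0.66 ± 0.34).

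Markers of immune cells that make or answer interferon were low and varied between libraries. The 16 T and NK cell genes together took 0.00853% to 0.0267% of the count in controls and 0.00894% to 0.0172% in treated skin, highest in control 3. Cd3g, a chain of the T cell receptor complex, had 671, 280 and 1111 counts in controls and 328, 131 and 269 in treated libraries, and the cytotoxic granule gene Nkg7 had 364, 104 and 433 against 118, 17 and 57. Other genes of the list went the other way: with no filter 9 of the 16 were lower and 7 higher, and Lck, a T cell kinase, had separated groups that were higher in treated skin, at 3.83, 2.47 and 3.97 CPM in controls and 4.98, 4.98 and 7.07 in treated libraries. Ncr1, an NK cell marker, was at 0 in 5 of the 6 libraries. For plasmacytoid dendritic cells, which can release much interferon alpha, the summed share of the 8 genes listed was 0.0702% to 0.0958% in controls and 0.0473% to 0.0804% in treated skin, but Cox6a2 and Ly6d, which muscle and epidermis express, had the most counts in most libraries. The specific marker Siglech had 50, 18 and 26 counts in controls and 11, 0 and 3 in treated libraries, and Ccr9 had 64, 53 and 45 against 19, 23 and 3. Of the 8 genes 5 were lower and 3 higher with no filter, the higher ones being Tcf4, Bcl11a and Pacsin1, the last with 0, 8 and 11 counts in controls and 11, 42 and 36 in treated libraries. The 12 macrophage genes took 0.0282% to 0.0401% in controls and 0.0237% to 0.0861% in treated skin, highest in osimertinib 3. Single genes of this list were mixed, with 7 of the 12 lower and 5 higher with no filter. The 9 neutrophil genes took 9.06e-05% to 0.0026% in controls and 0.00741% to 0.0585% in treated skin. With no filter 8 of these 9 were higher and 1 lower, but only 3 of the 9 passed the filter on low values. The part of these cells in the members' levels was not tested.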

How the data were processed

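Poly(A) RNA of 6 mouse skin samples was made into dUTP libraries with molecular identifiers and sequenced in pairs, per the labels' protocols. Cutadapt 1.9 and GRCm38 are named in the submitters' processing notes. No aligner, counting tool, annotation, strand setting or identifier handling is stated there. The authors deposited raw counts per gene and, beside them, FPKM values computed by the authors. A further 6 columns match no sample and were not used.

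The 13498 genes averaging 1 FPKM or more were tested with edgeR 4.0.16 in R 4.3.3, by its quasi-likelihood test on counts with TMM scaling, two-sided, no covariate, with Benjamini-Hochberg adjustment over all genes tested and a threshold of 0.05. SEs come from the fold change and its F statistic. Set levels are mean log2 CPM (prior count of 2). The 43 members, the lists and the families compared were chosen with earlier results of these data known. Members are all named. Up to 4 tested members of each role list and 3 genes of each pathway list, those with the smallest p, have values by library. A gene that this rule would name is not reported here. Of 344 listed genes, 15 were not matched and 3 were matched through RefSeq synonyms. Groups and replicate numbers come from the sample titles, and columns were matched to samples by their descriptions.

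The fits were tested on simulated data, where edgeR missed most 2-fold and most 4-fold changes and DESeq2 made more false calls than edgeR. Alternatives were DESeq2 1.42.0, other size factors, limma 3.58.1 on log2 FPKM, other filters, muscle and hair genes removed, a muscle covariate, a replicate block and each library left out. Member coordinates are those of the deposited table, and all 43 gene identifiers occur in GENCODE M21, 39 with the same start and end. Promoter sequences are RefSeq's, on GRCm38.p6. A count of 0 allows up to 3 counts, 0.0494 to 0.0554 CPM before TMM scaling, which covers counting error only.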

Additional observations from a re-analysis of the deposited data

How the results depend on the processing

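The number of genes past the threshold was 0 in the main comparison and in each fit without 1 library, 858 with DESeq2, 17 and 2 with limma on log2(FPKM + 1) and log2(FPKM + 0.1), 1 with the muscle covariate and 2 under the stricter filter of 5 FPKM. Of the members, 4 passed with DESeq2 (3 of 43 with DESeq2 and no filter) and 0 in the other settings. Leaving out each library in turn, the median over the tested members ran from −1.17 to −0.66, the type I median from −1.95 to −0.81, the gamma-type median from −1.16 to −0.39 and their difference from 0.052 to 0.85. The smallest medians came without control 3, except the gamma-type one, which came without osimertinib 2. With no type I gene at a mean FPKM of 5, that setting gave no type I value. Single members that turned positive were Dhx58 (−0.68 to 0.081) and Oasl1 (−0.83 to 0.057), both highest without control 3, and Ifi44 (−1.17 to 0.094), above 0 without osimertinib 1 (0.094) or 2 (0.025). With no filter, Dhx58 (0.11), Oasl1 and Ifit1 (0.0060) were above 0 without control 3. Settings that join no filter with another choice were added after seeing the data. With limma on log2(FPKM + 1), which understates low genes, the median over members was −0.52. The replicate block gave 0 member calls and a median of −0.91. The replicate numbers were not taken to pair samples: deviations of same-numbered libraries correlated at 0.22, 0.03 and −0.11.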

Other observations

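These genes were picked after their values were seen. In the Ifi200 cluster of DNA-binding interferon targets, Ifi204 was at 19.7, 19.2 and 21.5 CPM in controls and 12.1, 5.62 and 17.6 in treated skin (log2 fold change −0.77 ± 0.41, SE, n = 3 per group), and Ifi203, Ifi205 and Ifi211 differed by −0.54, −1.02 and −0.90. The interferon-induced transmembrane genes, which block virus entry, did not share the members' direction: Ifitm1, Ifitm2 and Ifitm3 differed by 0.18, 0.32 and 0.11, and Ifitm3 was highest in osimertinib 3, at 254 CPM, and control 3, at 241 CPM. Apol9b was at 1.39, 2.81 and 6.40 CPM in controls and 0.844, 0.717 and 1.58 in treated skin (−1.75 ± 0.65). Slfn9 went the other way, at 4.66, 5.77 and 12.6 CPM against 10.9, 19.7 and 15.5 (1.003 ± 0.45). None of them passed in edgeR.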
